A study of Homo sapiens with 8 samples.

Results

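Type I interferon response genes were followed across 2 human multiple myeloma lines in which the checkpoint kinase CHEK1 was manipulated. The set holds 9 of the 24351 genes in the deposited expression table: the transcription factors STAT2, IRF9 and IRF7, and the stimulated genes ISG15, IFI6, IFIT3, ISG20, IFITM2 and MX1. Membership was set by gene name, with earlier results of these data known, and all 9 had rows. Counts of the set given beside shares of all genes are therefore descriptions. The level of a gene is the sum of the FPKM of its transcripts, that is, sequenced fragments divided by transcript length and by the mapped total. The lines, ARP1 and H929, are established cultures of malignant plasma cells. Each line gave 4 libraries of poly(A) RNA, 1 for CHEK1 overexpression, 1 for the control of overexpression, 1 for CHEK1 knockdown and 1 for the control of knockdown, so 8 libraries in all and n = 2 lines per genotype. No treatment or time is given in the labels, which also do not say which vector or knockdown agent was used, whether the manipulated cells were pools or single clones, or how many cultures stand behind a library.

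Type I interferons bind the receptor formed by IFNAR1 and IFNAR2. The kinases JAK1 and TYK2 then phosphorylate STAT proteins, STAT2 among them, which join IRF9 to form the complex ISGF3. ISGF3 enters the nucleus and binds the interferon-stimulated response element (ISRE) in the promoters of stimulated genes, IRF7 among them, and IRF7 in turn drives further interferon transcription. Many tumour lines keep a basal level of these transcripts without added interferon.

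RefSeq promoter windows of GRCh38.p14, reaching from 250 bases before to 50 bases after a start, were matched by symbol for 7 of the 9 genes. They were searched on both strands for the ISRE core GAAANNGAAA and for the STAT dimer element TTCNNNGAA, whose matches can overlap. The ISRE core was present in 5 of these 7 genes (ISG15, IFI6, IFIT3, ISG20 and MX1), of which IFIT3 and MX1 have several windows. By window it was present in 7 of 10. Of all 35116 promoter windows 3.57% held it, and 54.4% of the 57 windows of the other stimulated genes described further on. In 1 MX1 window it lay 12 to 21 bases after the start. It was not found in the windows of STAT2 and IRF9. TTCNNNGAA, present in 7.66% of all windows, matched once in IRF9, from 63 to 55 bases before the start, and once in an MX1 window. The sequences of 4 of the stimulated genes and of STAT2 are printed. The first 3 are the stimulated genes that were below both controls of each line with overexpression, and ISG20 followed another pattern. STAT2, without the element, was likewise below both controls with overexpression. It was above both controls in the libraries labelled knockdown, in H929 by little. Each gives the 250 bases before the start, 5′ to 3′ on the strand of the gene, and capitals mark matches to the ISRE core on either strand (TTTCNNTTTC is the core read on the opposite strand). The windows lie at chr1:1013247-1013496 on the plus strand for ISG15, chr1:27672193-27672442 on the minus strand for IFI6, chr10:89327747-89327996 on the plus strand for the first of the 2 IFIT3 windows, chr15:88638766-88639015 on the plus strand for ISG20 and chr12:56360108-56360357 on the minus strand for STAT2.
ISG15 promoter: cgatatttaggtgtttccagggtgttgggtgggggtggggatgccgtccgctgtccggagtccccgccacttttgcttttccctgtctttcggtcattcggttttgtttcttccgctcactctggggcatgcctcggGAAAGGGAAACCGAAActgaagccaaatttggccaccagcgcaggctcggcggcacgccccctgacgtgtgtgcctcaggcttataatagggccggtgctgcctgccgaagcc
IFI6 promoter: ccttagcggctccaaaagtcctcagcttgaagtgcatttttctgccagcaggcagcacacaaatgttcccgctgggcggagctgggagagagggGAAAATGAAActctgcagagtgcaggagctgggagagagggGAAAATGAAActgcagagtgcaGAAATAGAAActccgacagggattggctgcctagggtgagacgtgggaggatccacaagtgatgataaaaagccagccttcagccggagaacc
IFIT3 promoter: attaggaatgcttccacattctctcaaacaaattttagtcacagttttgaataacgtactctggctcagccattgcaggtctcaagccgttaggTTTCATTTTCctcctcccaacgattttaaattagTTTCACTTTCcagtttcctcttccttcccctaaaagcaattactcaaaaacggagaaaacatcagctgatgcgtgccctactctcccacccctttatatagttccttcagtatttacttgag
ISG20 promoter: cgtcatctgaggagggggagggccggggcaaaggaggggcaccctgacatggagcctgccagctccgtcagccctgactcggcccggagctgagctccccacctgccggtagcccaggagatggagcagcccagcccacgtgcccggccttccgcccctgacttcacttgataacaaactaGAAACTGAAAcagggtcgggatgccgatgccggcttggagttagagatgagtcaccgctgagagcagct
STAT2 promoter: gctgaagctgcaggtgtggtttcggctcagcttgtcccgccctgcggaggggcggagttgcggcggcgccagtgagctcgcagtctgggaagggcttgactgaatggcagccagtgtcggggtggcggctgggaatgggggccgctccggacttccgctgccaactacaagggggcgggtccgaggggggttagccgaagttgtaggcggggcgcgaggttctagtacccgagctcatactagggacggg
In ISG15 the core matched at 2 overlapping places, starting 113 and 107 bases before the start. IFI6 held 3 matches, starting 156, 115 and 93 bases before it. IFIT3 held 2 matches in this window, at 156 and 122 bases before the start, and 2 in its other window, at 94 and 51 bases. ISG20 held 1 match, 69 bases before the start. A match describes these letters and is not evidence of binding.

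Summed FPKM per library lay between 631871 and 693299, and the depth behind a value is unknown because the table gives no counts. CHEK1 was at 114 FPKM with overexpression in ARP1, above 78.2 in the control of overexpression and 61.0 in the control of knockdown, and at 107 in H929, above 81.6 and 80.7. Its fitted log2 difference was 0.47 from its own control (SE 0.20, limma adjusted p = 0.994). From the other control it was 0.65 (SE 0.20, adjusted p = 0.240), so the rise of CHEK1 did not pass the test. In the library labelled knockdown it was at 51.6 FPKM in ARP1, below both controls, but at 84.8 in H929, above both. Directions drawn from the H929 library labelled knockdown therefore rest on its label alone. In ARP1 the transcript CHEK1-209 was at 11.4 FPKM in the control of knockdown and 8.2e-09 in the library labelled knockdown. The lower CHEK1 sum than in that control depended on this 1 transcript. Of 10 plasma cell markers 9 were above 17 FPKM in every library, JCHAIN at 1896 to 3521 FPKM and XBP1 at 425 to 976, while SLAMF7 ran from 13.3 to 27.4 FPKM across the ARP1 libraries and from 0.0778 to 0.201 across those of H929. Among markers of other cells, CD3D, CD3G and NKG7 of T and NK cells and CLEC4C of plasmacytoid dendritic cells were listed at 0 throughout, but TCF4 of the latter list was at 69.4 to 159 FPKM and GZMB at 0.205 to 1.19. Stroma and epithelium markers summed to between 1.59 and 5.48 FPKM per ARP1 library and between 7.21 and 17.1 per H929 library, with KRT18 at 10.5 FPKM in the H929 overexpression library against 3.78 and 1.57 in the controls. Myeloid markers summed to at most 2.89 FPKM. The summed T and NK markers stayed between 0.379 and 1.09 FPKM in ARP1 and ran from 0.587 to 14.2 FPKM in H929, with the highest value, all of it GNLY, in the overexpression library, and the part of such cells in the results was not tested. In bulk RNA, fewer cells expressing a gene and less RNA per cell cannot be told apart.

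Ranked by mean FPKM over the 8 libraries, ISG20 (45.3 FPKM) and ISG15 (33.7) stood first, followed by STAT2 (18.9), IFITM2 (12.5), IRF9 (10.6), IFI6 (8.31), IRF7 (3.34) and IFIT3 (2.26). The ranges of each neighbouring pair in this order overlapped, so the order of neighbours is not separated by the spread between libraries. Nor was it the order within a line: IFI6 averaged less than IRF7 in ARP1 (2.36 against 3.68 FPKM) and more than IRF9 in H929 (14.3 against 10.8), where IFIT3 was also above IRF7 (4.02 against 2.99). MX1, which encodes a dynamin-like GTPase that blocks viral replication, was listed at 0 in all 8 libraries for each of its 11 transcripts in the table. None of 10 genes that every cell uses was listed at 0 in any library. MX1 was the 1 gene of the 9 left out by the filter on low values (at least 1 FPKM in 2 or more libraries), so 8 genes were tested among 14905.

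**Figure D1:**
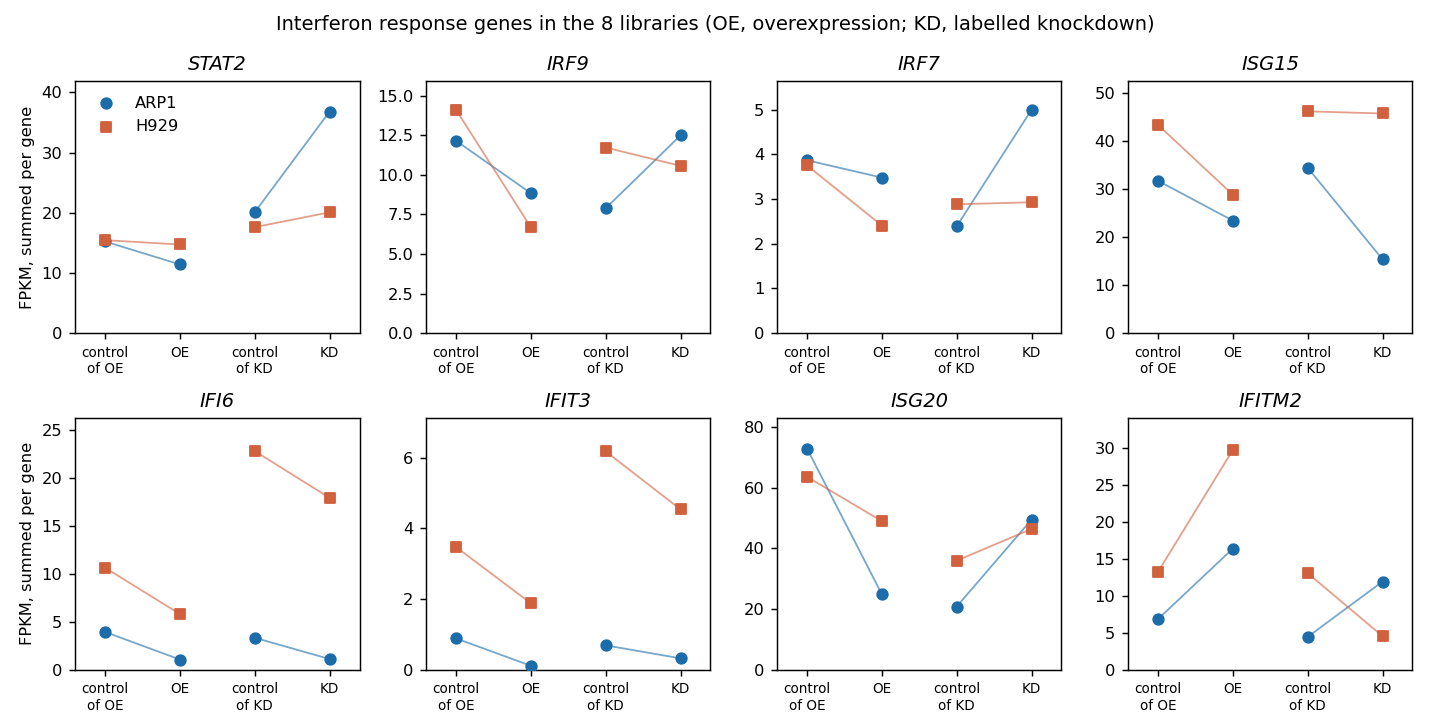
Summed FPKM of the 8 measured interferon response genes (linear axis from 0) in each library, with ARP1 as circles and H929 as squares, and lines joining each manipulation to its own control. IFI6 and IFIT3 lie higher in all 4 H929 libraries, and STAT2 peaks, at 36.8 FPKM, for ARP1 labelled knockdown.

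With CHEK1 overexpressed, most of the set was lower than in the control made for it, and IFITM2 was higher, in both lines. Against both controls of both lines, STAT2, IFI6, ISG15 and IFIT3 lay below all controls of their line, 4 of 8 genes against 16.5% of all genes tested, and IFITM2 lay above them, 1 of 8 against 14.7%. No gene of the set passed the test. Across all genes, limma called 1 gene, 0.00671%, against the control of overexpression and none, 0%, against the control of knockdown. At an unadjusted p under 0.05 the counts were 663 and 2169 genes.

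IFI6 encodes a small mitochondrial and endoplasmic reticulum protein that opposes apoptosis and viral replication. In ARP1 it measured 3.94 FPKM in the control of overexpression, 3.33 in the control of knockdown and 1.06 with overexpression. In H929 it measured 10.6, 22.8 and 5.80 FPKM in the same order. Overexpression held the low value of the 3 in both lines, although the H929 controls were themselves 1.03 apart on the log2(FPKM + 1) scale. The log2 difference from its own control was -1.02 (SE 0.43, n = 2 lines, limma adjusted p = 0.994) and from the other control -1.44 (SE 0.43, adjusted p = 0.236). The first was -1.62 without the H929 control of overexpression and -0.41 without that of ARP1.

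IFIT3 encodes a tetratricopeptide protein that supports IFIT1 in binding viral RNA. In ARP1 it was at 0.886 FPKM in the control of overexpression, 0.690 in the control of knockdown and 0.113 with overexpression. The H929 values were 3.47, 6.18 and 1.88 FPKM. The pattern was that of IFI6, at lower levels. Its log2 difference was -0.70 against its own control (SE 0.30, limma adjusted p = 0.994) and -0.96 against the other (SE 0.30, adjusted p = 0.244). Over the 8 libraries, after the mean of each line was removed, IFIT3 and IFI6 had a Pearson r of 0.97, a description of libraries that share their lines and their processing.

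ISG15 encodes a ubiquitin-like protein that is joined to other proteins during the response. It measured 31.8 and 34.5 FPKM in the ARP1 controls and 23.5 with overexpression. In H929 the controls were at 43.5 and 46.3 FPKM and overexpression at 28.9. The controls of a line lay within 0.11 of each other on the log2(FPKM + 1) scale in ARP1 and 0.09 in H929, closer than overexpression to any of them. The fitted log2 differences were -0.50 against its own control (SE 0.30, limma adjusted p = 0.994) and -0.60 against the other (SE 0.30, adjusted p = 0.409).

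STAT2, which brings the activation domain to ISGF3, was at 11.4 FPKM with overexpression in ARP1, against 15.2 and 20.1 in the controls of overexpression and of knockdown. In H929 the value was 14.7 FPKM against 15.4 and 17.6. The H929 gap to its own control, -0.06 on the log2 scale, was smaller than the -0.18 between the 2 controls of that line. The main transcript, STAT2-201, was at 10.7 FPKM with overexpression in H929, between the controls at 9.88 and 14.0. The place of the STAT2 sum below both H929 controls was therefore not shared by that transcript. IRF9, the DNA-contacting subunit of ISGF3, was at 6.69 FPKM with overexpression in H929, below 14.1 and 11.7 in the controls. In ARP1 it was at 8.84 FPKM, between the controls at 12.2 and 7.89. Its log2 difference from the own control was -0.70 (SE 0.24, unadjusted p = 0.0228, limma adjusted p = 0.994). The main transcript, IRF9-202, was below both controls in both lines. It was at 6.44 FPKM against 9.76 and 7.67 in ARP1, and at 6.69 against 8.98 and 10.1 in H929.

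IRF7 measured 3.48 FPKM with overexpression in ARP1, between the controls at 3.87 and 2.39, and 2.41 FPKM in H929, below both controls at 3.75 and 2.88. ISG20, an exonuclease that degrades single-stranded RNA, had the widest gap between the controls of the 8 genes in the fit and in ARP1, while in H929 that of IFI6 was wider. In ARP1 it was at 24.9 FPKM with overexpression, against 72.9 in the control of overexpression and 20.8 in the control of knockdown. In H929 the values were 49.0, 63.6 and 35.9 FPKM. Overexpression therefore lay between the controls in both lines, and the log2 difference was -0.94 against one control (SE 0.30, unadjusted p = 0.0171, limma adjusted p = 0.994) and 0.34 against the other (SE 0.30, adjusted p = 0.631). Without the H929 overexpression library the second value was -0.05.

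IFITM2, a membrane protein that hinders viral fusion, was the 1 gene of the 8 above the control of overexpression, while against the control of knockdown the fitted differences of ISG20 and IRF7 were positive too. It measured 16.4 FPKM with overexpression in ARP1, against 6.84 and 4.43 in the controls, and 29.7 FPKM in H929, against 13.2 and 13.0. The groups did not overlap within a line. The log2 difference was 1.13 against its own control (SE 0.56, limma adjusted p = 0.994) and 1.40 against the other (SE 0.56, adjusted p = 0.328). Its main transcript, IFITM2-201, shares 94.3% of its 333 stretches of 50 bases with the overlapping neighbour IFITM1, so reads could have been split between them. IFITM1 was at 31.5 FPKM with overexpression in ARP1, between its controls at 16.9 and 40.8, and at 32.0 in H929, below 35.5 and 38.9. The sum of both genes was 47.9 FPKM with overexpression in ARP1, against 23.8 and 45.2 in the controls, and 61.7 in H929, against 48.8 and 52.0, so it too was above both controls in each line, in ARP1 by a narrower margin over the control of knockdown.

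Across the 8 genes, 7 were lower than the control of overexpression (51.5% of all genes tested were), with a median log2 difference of -0.60 against -0.01 over all genes. Against the control of knockdown 5 were lower, near the 52% of all genes, with a median of -0.40 against -0.02. Both comparisons use the same overexpression libraries. In the test of whether the overexpression effect differed between the lines, with the 2 controls of a line pooled, no gene of the set passed (limma adjusted p = 1 for all 8), nor did any gene of the 14905, with 279 at an unadjusted p under 0.05.

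**Figure D2:**
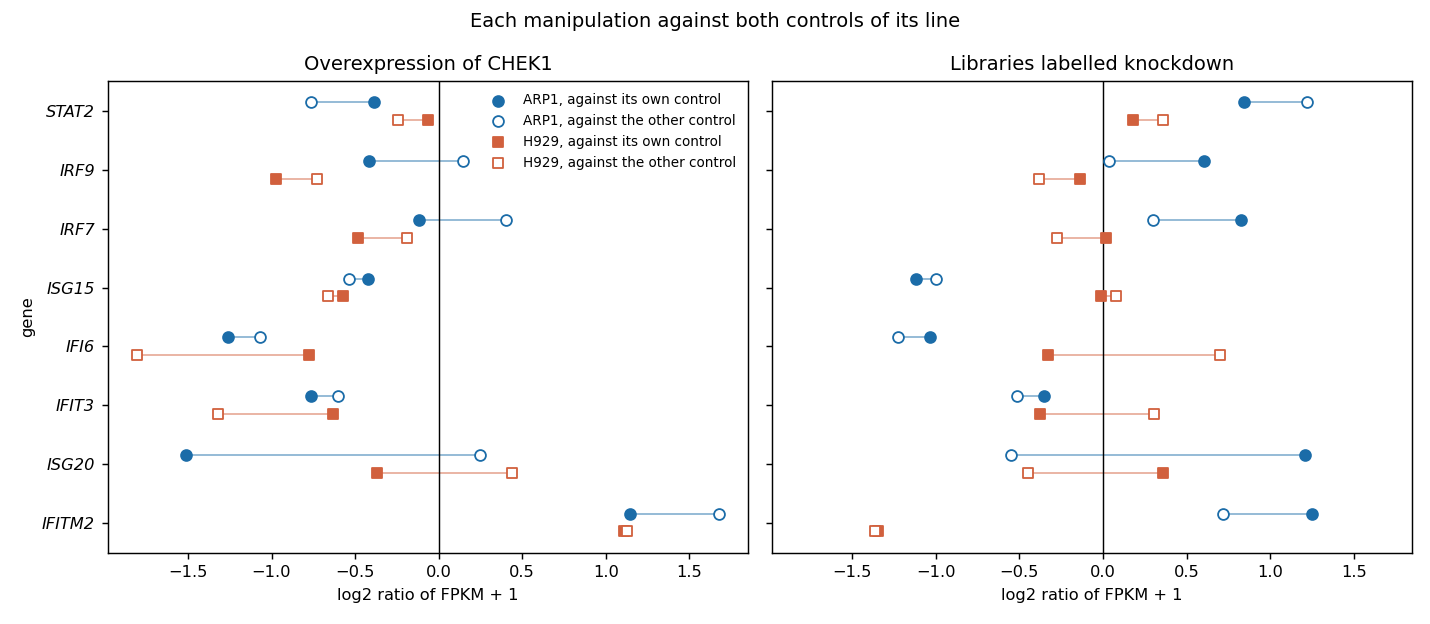
Log2 ratio of FPKM + 1 for each gene, overexpression at left and the libraries labelled knockdown at right, with filled symbols against the control of the same manipulation, open symbols against the other control, circles for ARP1 and squares for H929. With overexpression all 4 symbols of STAT2, ISG15, IFI6 and IFIT3 lie left of 0 and all 4 of IFITM2 right of it, while ISG20 spans 0 in both lines and both panels.

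In the libraries labelled knockdown STAT2 lay above both controls in both lines, 1 of 8 genes against 15% of all genes tested, a share near the background. No gene lay below both controls in both lines (14.1% of all genes did). IRF9 and IFITM2 lay above both controls in ARP1 and below both in H929, 2 of 8 genes against 18.4%, and ISG20 lay between its controls in both lines. No gene of the set passed the test, and limma called 2 genes, 0.0134%, of all those tested against each of the 2 controls, with 1362 at an unadjusted p under 0.05 against the control of knockdown and 2351 against the control of overexpression.

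STAT2 was at 36.8 FPKM in ARP1, against 20.1 in the control of knockdown and 15.2 in the control of overexpression. In H929 it was at 20.1 FPKM, against 17.6 and 15.4. The excess was thus large in ARP1 and small in H929. Its log2 difference was 0.51 against the control of knockdown (SE 0.27, limma adjusted p = 0.579) and 0.79 against the control of overexpression (SE 0.27, adjusted p = 0.256). Without the H929 library labelled knockdown the latter was 1.24 with an adjusted p of 0.0256, but that group is then the ARP1 library alone, assumed to vary like the other genotypes, and 1393 genes passed in place of 2.

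In ARP1, ISG15 was at 15.4 FPKM, the low end of its whole range, against 34.5 and 31.8 in the controls. In H929 it was at 45.8 FPKM, beside controls at 46.3 and 43.5. The fitted log2 difference from its own control was -0.56 (SE 0.30, limma adjusted p = 0.578). Without the H929 library labelled knockdown it was -1.13 (adjusted p = 0.0297) against the control of knockdown and -1.03 (adjusted p = 0.018) against the control of overexpression, where that group is the ARP1 library alone, assumed to vary like the others, and 837 and 1393 of the 14905 genes passed. The line difference in the effect was 1.09 (SE 0.24, unadjusted p = 0.0055, limma adjusted p = 0.61).

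IFI6 was at 1.11 FPKM in ARP1, against 3.33 and 3.94, and IFIT3 at 0.322, against 0.690 and 0.886. In H929 IFI6 was at 17.9 FPKM, between the control of knockdown at 22.8 and the control of overexpression at 10.6. IFIT3 was also between them, at 4.54 FPKM against 6.18 and 3.47. Both genes were thus below both controls in ARP1 and between them in H929. The fitted differences from the own control were -0.68 for IFI6 (SE 0.43, limma adjusted p = 0.616) and -0.36 for IFIT3 (SE 0.30, adjusted p = 0.692), on the log2 scale. For IFI6 it was -1.36 without the H929 library labelled knockdown and -0.00457 without that of ARP1.

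IRF9 was at 12.5 FPKM in ARP1, above 7.89 and by little above 12.2, and at 10.6 in H929, below 11.7 and 14.1. Its main transcript, IRF9-202, was above both controls in each line. It was at 10.0 FPKM against 7.67 and 9.76 in ARP1, and at 10.4 against 10.1 and 8.98 in H929. IRF7 was at 5.0 FPKM in ARP1, above 2.39 and 3.87, and at 2.93 in H929, level with 2.88 in its own control and below 3.75. ISG20 was again between its controls, at 49.4 FPKM in ARP1 and 46.4 in H929. IFITM2 parted the lines: 11.9 FPKM in ARP1, against 4.43 and 6.84, but 4.54 in H929, against 13.0 and 13.2. The line difference for IFITM2 was -2.34 (SE 0.40, unadjusted p = 0.0019, limma adjusted p = 0.61). No gene of the 14905 passed this comparison, in which 1161 had an unadjusted p under 0.05. The sum of IFITM1 and IFITM2 was 62.4 FPKM in ARP1, against 45.2 and 23.8, and 42.3 in H929, against 52.0 and 48.8.

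Without any manipulation of CHEK1, the 2 controls of a line already differed for some of these genes. In ARP1, ISG20 was at 72.9 FPKM in the control of overexpression and 20.8 in the control of knockdown, and in H929 at 63.6 and 35.9 FPKM. Its log2 difference of 1.28 (SE 0.30, unadjusted p = 0.00398) did not pass (limma adjusted p = 0.332), in a comparison where limma called 8 genes, 0.0537% of those tested, and 1600 had an unadjusted p under 0.05. IFI6 and IFIT3 were lower in the control of overexpression by 1.03 and 0.68 on the log2 scale in H929, and higher by 0.19 and 0.16 in ARP1. Past 1.5-fold in H929 lay IFI6 and IFIT3 on the lower side, 2 of 8 genes against 8.19% of all genes, and ISG20 on the higher side, against 5.54%. The cause of the gap between the controls was not tested.

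The lines themselves set IFI6 and IFIT3 furthest apart. All 4 H929 libraries were above all 4 ARP1 libraries for these 2 genes, 2 of 8 against 13.7% of all genes tested. Over its 4 libraries IFI6 averaged 14.3 ± 7.53 FPKM (SD, n = 4) in H929 and 2.36 ± 1.49 in ARP1. IFIT3 averaged 4.02 ± 1.81 FPKM in H929 and 0.503 ± 0.349 in ARP1. The log2 differences were 2.14 for IFI6 (SE 0.30, limma adjusted p = 0.00482) and 1.69 for IFIT3 (SE 0.21, adjusted p = 0.00348), and both passed, in a comparison where 27.1% of all genes did, 13.4% as higher in H929. They passed in every alternative run, with adjusted p from 0.00184 to 0.0266 for IFI6 and from 0.0011 to 0.0221 for IFIT3.

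ISG15 averaged 41.1 ± 8.25 FPKM in H929 and 26.3 ± 8.65 in ARP1, with overlapping ranges and a log2 difference of 0.66 (SE 0.21, limma adjusted p = 0.0567). Over 16 alternatives its adjusted p ran from 0.0244 to 0.127, and it passed in 6 of them. Without either library labelled knockdown it passed at a smaller difference, 0.38. For the other 5 genes the line difference and its 95% interval half-width, from limma on the log2 scale, were -0.17 ± 0.46 for STAT2, 0.03 ± 0.40 for IRF9, -0.21 ± 0.42 for IRF7, 0.36 ± 0.51 for ISG20 and 0.46 ± 0.94 for IFITM2. None of these 5 passed, and the intervals still allow differences of the stated size. For IFITM2, leaving out 1 library gave 0.15 without the ARP1 control of knockdown and 1.02 without either library labelled knockdown, with adjusted p from 0.00786 to 0.837 over the alternatives.

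**Figure D3:**
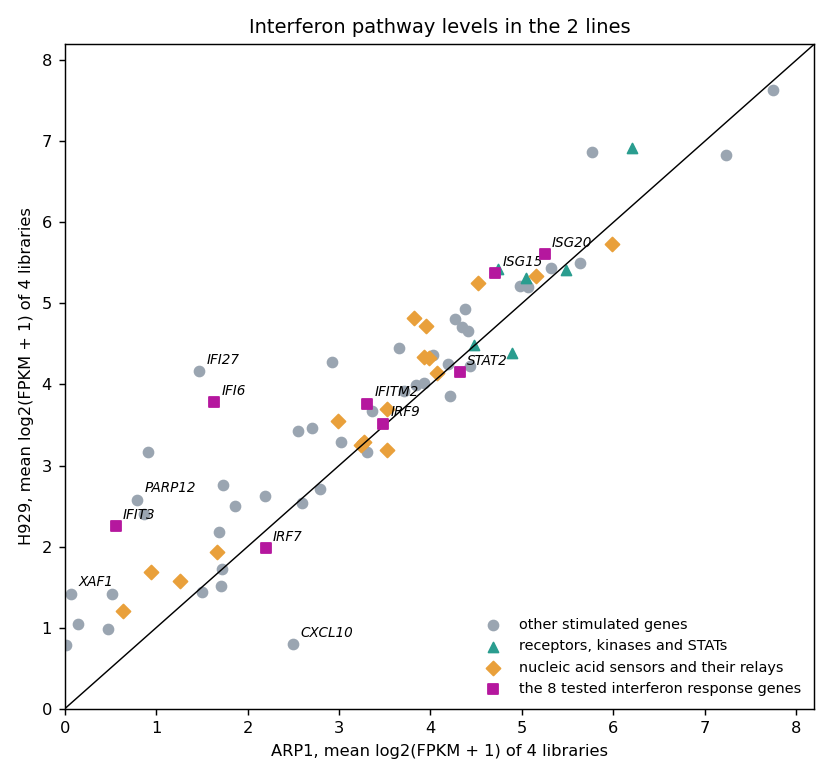
Mean log2(FPKM + 1) over 4 libraries in H929 (vertical) against ARP1 (horizontal) for the 8 measured interferon response genes (squares) and the other genes of the pathway that were tested, with the diagonal marking equal levels. IFI6 and IFIT3 lie above the diagonal by 2.14 and 1.69, and STAT2, IRF9 and IRF7 lie near it.

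Sums per gene hide the transcripts behind them. Nearly all of the ISG15 sum came from ISG15-201 (100% after rounding), 93.3% of IFI6 from IFI6-202, 95.6% of IFITM2 from IFITM2-201 and 82.9% of IRF9 from IRF9-202, with IRF9-205 at 12.7%. STAT2 was 72.8% STAT2-201 and 17.9% STAT2-210, and in the ARP1 library labelled knockdown both were at their highest, 26.4 and 6.39 FPKM. ISG20 was 63.0% ISG20-210, 19.2% ISG20-201 and 14.5% ISG20-208. All 3 were higher in the control of overexpression than in the control of knockdown of the same line, ISG20-210 at 49.7 against 14.4 FPKM in ARP1 and 37.6 against 22.9 in H929.

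IRF7 was spread over IRF7-203 (38.5%), IRF7-201 (24.1%), IRF7-205 (23.0%) and IRF7-204 (13.6%), and their order changed from library to library: IRF7-203 ran from 0.328 to 2.72 FPKM and IRF7-201 from 0.00054 to 1.63. These transcripts overlap in most of their length, so their split is an estimate. IFIT3 was 70.3% IFIT3-202 and 29.7% IFIT3-201, yet IFIT3-202 was below 0.001 FPKM in 3 of the 4 ARP1 libraries and between 0.511 and 5.18 in H929. With overexpression in H929, IFIT3-202 was at 0.511 FPKM against 2.79 and 5.18 in the controls, while IFIT3-201 was at 1.37, above 0.687 and 1.0. IRF9-202 shares all of its 1789 stretches of 50 bases with the overlapping locus AL136295.5, which has no row. IFIT3 overlaps LIPA on the opposite strand, at 7.17 to 27.9 FPKM, and the sources used here do not say whether reads were assigned by strand.

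**Figure D4:**
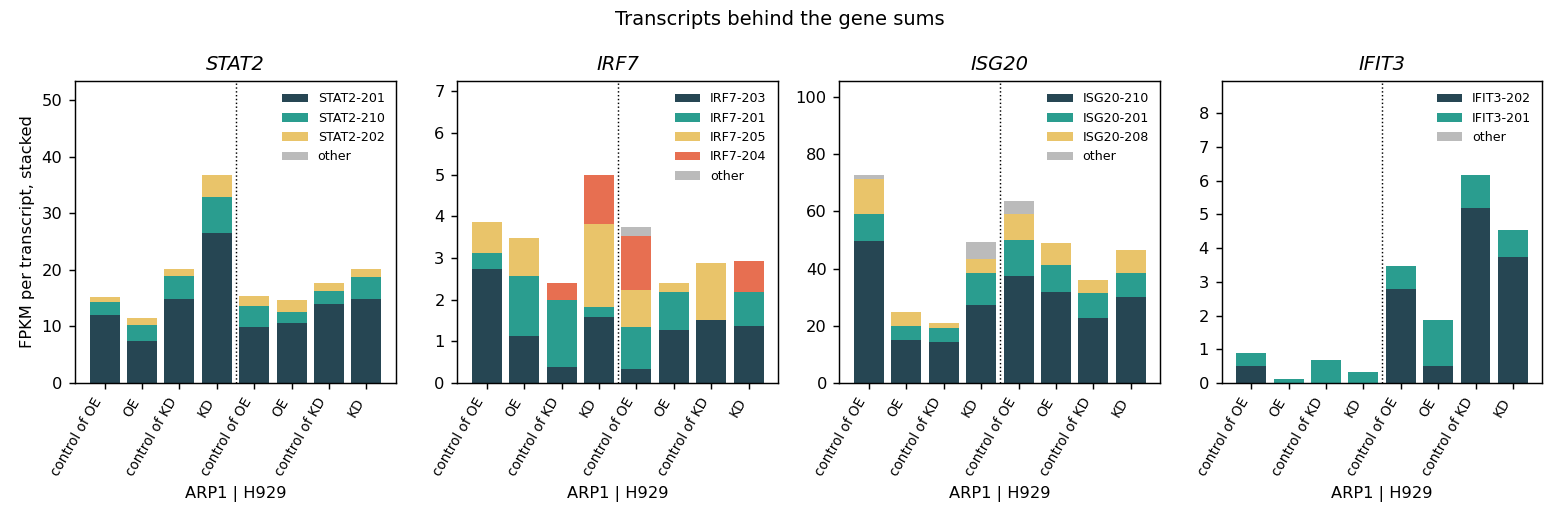
FPKM of the transcripts of STAT2, IRF7, ISG20 and IFIT3, stacked to the sum per gene, in the 4 ARP1 libraries (left of the dotted line) and the 4 H929 libraries (right). IFIT3-202 makes up most of the H929 sums except with overexpression, at 0.511 FPKM, and the IRF7 transcripts trade places between libraries.

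The rest of the pathway was read from lists of its ligands, receptors, regulators and targets. Of 17 type I interferon genes, 11 were listed at 0 in all libraries and none reached 0.8 FPKM. The 3 with the highest levels were IFNK, up to 0.760 FPKM, IFNB1, up to 0.559, and IFNW1, up to 0.185. None of the 17 could be tested, so the ligands were at the floor of the table in every library.

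All 6 receptors, kinases and STATs were tested. IFNAR2 ran from 59.3 to 132 FPKM, TYK2 from 38.9 to 56.8 and IFNAR1 from 23.2 to 45.1. No gene of the list passed in a comparison of genotypes. IFNAR2 (log2 difference 0.71, SE 0.12, limma adjusted p = 0.00848) and JAK1 (0.68, SE 0.10, adjusted p = 0.00509) were higher in H929 than in ARP1. STAT3 was lower (-0.50, SE 0.14, adjusted p = 0.0402). These were 3 of 6 genes, where 27.1% of all genes tested passed in either direction. With overexpression, IFNAR1 and JAK1 lay above both controls in both lines.

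Of 10 negative regulators 9 were tested, and none passed between genotypes. PTPN6, a phosphatase that acts on JAK kinases, ran from 98.3 to 145 FPKM, PTPN11 from 34.6 to 68.3 and the repressor IRF2 from 34.9 to 73.8, with the highest IRF2 value in the ARP1 library labelled knockdown. TRIM24 was higher and SOCS3 lower in H929 than in ARP1 (limma adjusted p = 0.00508 and 0.0418). These were 2 of 9 genes, near the 27.1% of all genes tested that passed in either direction. USP18, which holds back receptor signalling, did not pass the filter and ran from 0 to 0.226 FPKM.

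Of 20 nucleic acid sensors and relays 17 were tested and none passed between genotypes, while 6 were higher in H929 than in ARP1 (DDX58, MAVS, CGAS, TMEM173, IFI16 and TRAF3) and none lower, against 13.4% and 13.7% of all genes tested. The 3 with the highest levels were IRF3 (46.2 to 67.6 FPKM), IRF5 (29.3 to 47.3) and TMEM173, the adaptor also called STING (17.0 to 39.9). The log2 difference of TMEM173 between the lines was 0.73 (SE 0.11, limma adjusted p = 0.00591).

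All 4 genes of the ISG15 conjugation machinery were tested. In the fit, 4 of 4 were lower with overexpression than in the control of overexpression, and 3 of 4 than in the control of knockdown. Of all genes tested, 51.5% and 52% were lower. The median log2 differences of the 4 were -0.09 and -0.48, against -0.01 and -0.02 over all genes. Some gaps to the own control were very small within a line, -0.006 for TRIM25 in ARP1 and 0.004 for HERC5 in H929. UBE2L6, the conjugating enzyme, was at 18.1 FPKM with overexpression in ARP1, against 19.3 and 28.9 in the controls, and at 14.2 in H929, against 22.2 and 30.3. It was the 1 gene of 4 below both controls in both lines, against 16.5% of all genes tested. TRIM25 ran from 19.5 to 29.3 FPKM and HERC5, the ligase, from 0.312 to 2.14. HERC5 was lower in H929 than in ARP1 (log2 difference -0.74, SE 0.20, limma adjusted p = 0.036). It was the 1 gene of 4 that passed between the lines, near the 27.1% of all genes tested. No gene of the 4 passed between genotypes.

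Of 55 other stimulated genes 44 passed the filter. None passed the test between genotypes, and between the lines 17 were higher in H929 (13.4% of all genes tested were) and 2, ADAR and CXCL10, lower (13.7% of all genes). BST2, which tethers budding virus, was the most abundant at 152 to 282 FPKM, followed by the RNA editor ADAR at 96.3 to 170 and LY6E at 47.7 to 126. LY6E was higher in H929 by 1.09 (SE 0.10, limma adjusted p = 0.00137) and ADAR lower, at -0.40 (SE 0.11, adjusted p = 0.0395), on the log2 scale. With overexpression 14 of the 44 lay below both controls in both lines, BST2 and CXCL10 among them, and 5 above (EIF2AK2, SAMD9, NMI, LY6E and ZNFX1), against 16.5% and 14.7% of all genes. The median log2 difference of the 44 was -0.10 against the control of overexpression and -0.32 against the control of knockdown, beside -0.01 and -0.02 over all genes.

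In the library labelled knockdown, 25 of these 44 genes lay below both controls in ARP1 and 6 in H929, against 39.4% and 29.1% of all genes. Their median log2 difference from the control of knockdown was -0.21 over both lines, against -0.02 over all genes, and from the control of overexpression 0.08, against 0.00. The sign of the median therefore depended on the control. In H929, 12 of the 44 were lower by 1.5-fold or more in the control of overexpression than in the control of knockdown (8.19% of all genes), and 25 were higher in both knockdown-arm libraries than in both overexpression-arm libraries (28.6% of all genes). In ARP1 the latter count was 7 (23.1%). Of the 8 genes of the set, STAT2, IFI6, ISG15 and IFIT3 had that order in H929 and STAT2 in ARP1.

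**Figure D5:**
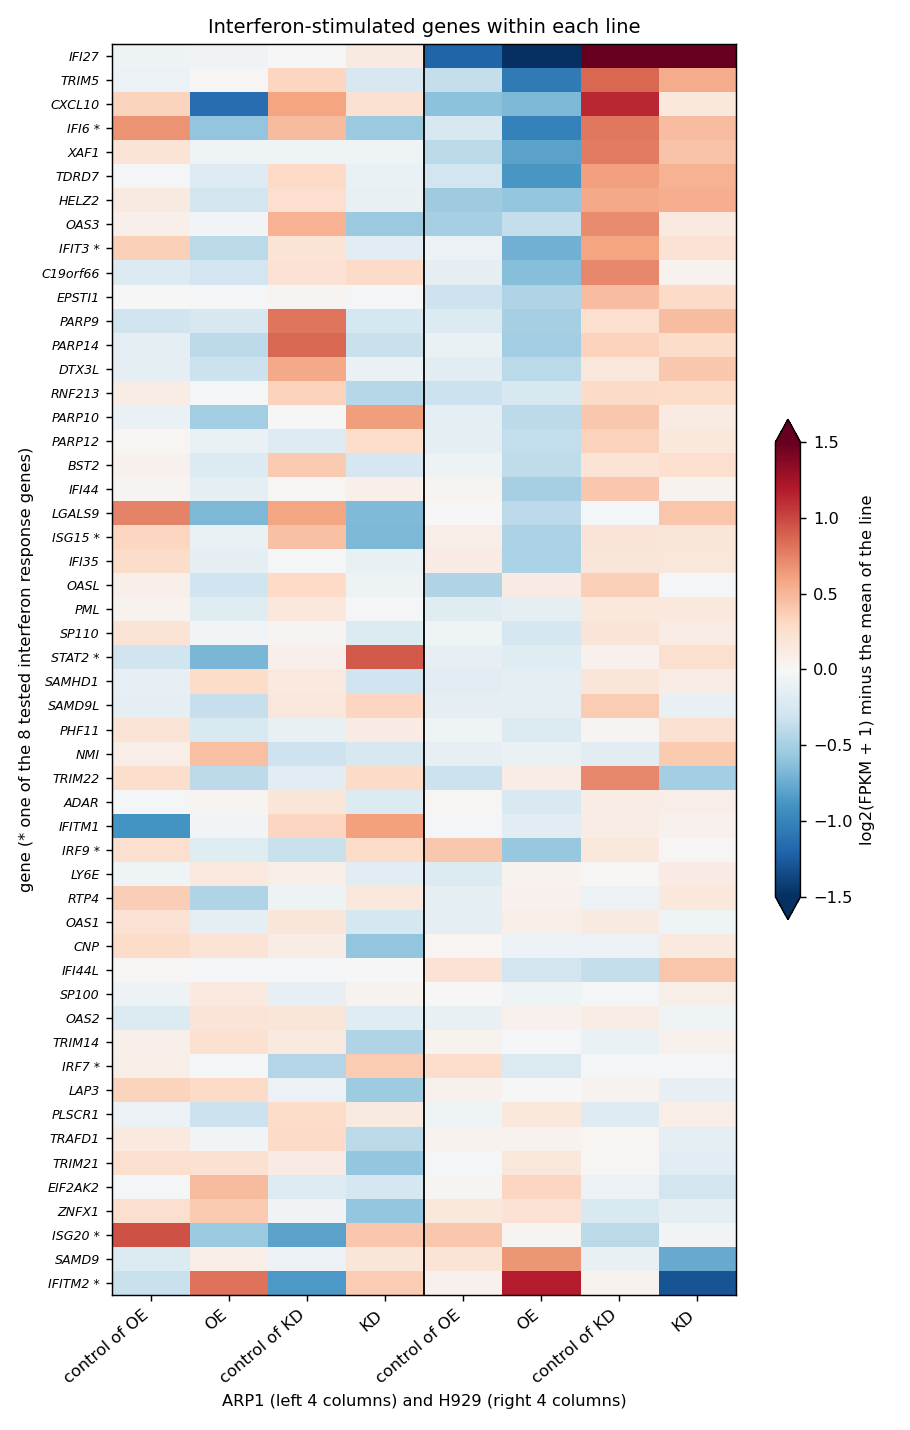
Log2(FPKM + 1) minus the mean of the line for the 8 measured interferon response genes (marked with a star) and the 44 other stimulated genes that passed the filter, in the 4 ARP1 columns and the 4 H929 columns. Rows are sorted by the mean of the 2 H929 knockdown-arm columns minus the mean of the 2 H929 overexpression-arm columns. The contrast of the upper rows in H929 therefore follows from the sort. Both knockdown-arm values lay above both overexpression-arm values for 25 of the 44 in H929 and 7 in ARP1. Of all genes tested, 28.6% and 23.1% had this order.

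On the interferon gamma side 7 of 10 genes were tested and none passed between genotypes. IRF1 was at 21.2 FPKM with overexpression in ARP1, against 34.4 and 25.8 in the controls, and at 24.1 in H929, against 31.5 and 41.0. CIITA, which switches on MHC class II genes, ran from 13.0 to 36.2 FPKM and IFNGR1 from 5.92 to 10.8. IRF1, CIITA and GBP2, 3 of 7 genes, lay below both controls in both lines with overexpression, against 16.5% of all genes tested. IFNGR2, IRF8 and CIITA were lower in H929 than in ARP1 (limma adjusted p = 0.0432, 0.0163 and 0.0111). These were 3 of 7 genes, where 13.7% of all genes tested were called as lower.

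Among 10403 protein-coding genes outside all lists, the 5 whose line-centred levels were most like the mean of the 8 genes were ZSCAN21 (Pearson r = 0.98 over 8 libraries), CCDC102A (0.96), SDCCAG8 (0.95), IGFBP4 (0.95) and TRIM56 (0.95). With 8 libraries and so many candidates, these values describe likeness and are given without a test. ZSCAN21 was at 2.11 FPKM with overexpression in ARP1, against 4.61 and 2.39 in the controls, and at 2.44 in H929, against 4.22 and 4.06.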

How the data were processed

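Poly(A) RNA of 8 libraries was sequenced in paired ends, per the labels' protocols. The authors deposited 1 table of FPKM per transcript. Its title calls the values means, with 1 column per library, and whether a column averages several runs is not stated. The extraction protocol in the labels speaks of adipose material, which differs from the labelled myeloma lines. The submitters' processing notes name Bowtie 0.12.2, HISAT2 2.0, StringTie 1.3.0 and the mouse build mm8. The identifiers are human, so mm8 cannot be their build, and no human build is named in the sources used here. Transcripts were joined to genes through GENCODE 29, which matched 87707 of 88209, and FPKM was summed per gene. Values were not whole multiples of 1 read, so no counts were recovered. Genes at 1 FPKM or more in 2 or more libraries were tested on log2(FPKM + 1), a scale that understates changes of low genes, with limma 3.58.1 in R 4.3.3 (genotype and line, all 8 libraries, variance trend, two-sided, Benjamini-Hochberg over 14905 genes, threshold 0.05), after the same code was tested on simulated data. Effects in the lines were compared with the controls of a line pooled. Each line holds each genotype once, so the line was the block that pairs libraries. P-values measure the spread between these libraries alone. Within a line there was 1 library per genotype and no test. Named were all 9 genes of the set, CHEK1, the 3 most abundant genes of each list, transcripts with at least 10% of a gene's FPKM, and the 5 genes most alike in pattern. Other genes, among them JAK1 and SOCS3, were named after their values were seen. The members and lists were chosen with earlier results of these data known. Positions are from RefSeq on GRCh38.p14.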

Additional observations from a re-analysis of the deposited data

Results flagged for a closer look

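In the libraries labelled knockdown, IRF9 and IFITM2 stood on opposite sides of both controls in the 2 lines, above them in ARP1 and below them in H929. Of all genes tested, 18.4% were split in this way or the reverse. IRF9 in ARP1 was above the control of overexpression by 0.04 on the log2 scale, at 12.5 against 12.2 FPKM. Its main transcript, IRF9-202 with 82.9% of the sum, did not share the split. It lay above both controls in both lines, in H929 at 10.4 FPKM against 10.1 and 8.98. The lower IRF9 sum in H929 therefore came from its smaller transcripts. The H929 effect minus the ARP1 effect, with the controls of a line pooled, was -0.58 for IRF9 (SE 0.43, unadjusted p = 0.237, limma adjusted p = 0.763) and -2.34 for IFITM2 (SE 0.40, unadjusted p = 0.0019, limma adjusted p = 0.61) on the log2(FPKM + 1) scale. Neither passed. The CHEK1 sum was lower than both controls in the ARP1 library labelled knockdown and higher than both in that of H929. In ARP1 the gap to the control of knockdown depended on 1 transcript, CHEK1-209. The part of CHEK1 in these differences was not tested.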

How the results depend on the processing

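Counts of genes past the threshold were small between genotypes and moved with the setting. Without the replicate block (the line left out of the model), the count went from 2 to 0 for knockdown against its control. It went from 2 to 1 against the control of overexpression and from 8 to 2 between the controls. The set had no call in these comparisons that could be lost, and it gained none. H929 against ARP1, where its calls were, cannot be fitted without the line. Overexpression against its control (1 gene) gave 2 with no filter and 0 without transcripts under 300 nt, with protein-coding transcripts alone or with pooled controls. Knockdown against its control (2) gave 1 with a pseudocount of 0.1 or with every library rescaled to 1 sum, 0 at FPKM of at least 5, without short transcripts, with coding transcripts or with pooled controls, and 5 without the variance trend. Overexpression against the control of knockdown (0) gave 2 with no filter or no trend and 4 with coding transcripts. Knockdown against the control of overexpression (2) gave 1 without short transcripts or with coding transcripts, and the controls (8) gave 5, 3 and 4 with no filter, without short and with coding transcripts. With no filter the line differences gave 81 (overexpression) and 166 (knockdown) in place of 0. Leaving out 1 library gave ranges of 1 to 3, 0 to 837, 0 to 12, 1 to 1393, 1 to 11 and, for H929 against ARP1 (4035), 1830 to 4039. The 837 and 1393 came without the H929 library labelled knockdown. With a pseudocount of 0.1 the line difference in the overexpression effect turned from -0.12 to 0.27 for IFI6 and from -0.29 to 0.79 for IFIT3. Leaving out 1 library turned the sign of uncalled differences, with these ranges. H929 against ARP1 ran from -0.13 to 0.17 for IRF9 and from -0.33 to 0.0603 for STAT2. Overexpression against its control ran from -0.56 to 0.11 for STAT2, and against the control of knockdown from -0.16 to 0.38 for IRF7, -0.61 to 0.0315 for IRF9 and -0.0541 to 0.74 for ISG20. Knockdown against its control ran from -1.17 to 1.07 for IFITM2, -0.0896 to 0.55 for IRF9 and -1.13 to 0.00265 for ISG15, and against the control of overexpression from -0.94 to 0.42 for IFI6, -0.40 to 0.20 for IFIT3, -1.44 to 0.80 for IFITM2, -0.25 to 0.28 for IRF7 and -1.03 to 0.10 for ISG15. Between the controls it ran from -1.03 to 0.18 for IFI6, -0.56 to 0.0358 for IFIT3, -0.33 to 0.88 for IFITM2 and -0.27 to 0.0654 for ISG15. Of 844 values of the 8 genes under alternatives, 802 kept direction and side of the threshold, 31 reversed and 11 newly passed. The causes were not tested. Depth is unknown, and IFIT3 in ARP1 rests on FPKM below 1.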

Other observations

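IFI27, an interferon-stimulated mitochondrial protein gene related to IFI6, was named after its values were seen. In ARP1 it was at 1.64 FPKM in the control of overexpression, 1.67 with overexpression, 1.76 in the control of knockdown and 2.04 in the library labelled knockdown. The H929 values were 6.77, 1.41, 74.1 and 72.4 FPKM in the same order. The 2 libraries of the H929 knockdown arm were thus high whether or not labelled knockdown, as they were for IFI6 and IFIT3, and the H929 overexpression library was at the ARP1 level. XAF1, a proapoptotic interferon target, had the same order in H929, at 1.02, 0.535, 3.59 and 2.61 FPKM, and was at 0.209 or listed at 0 in ARP1. H929 against ARP1, the log2(FPKM + 1) differences were 2.69 for IFI27 (SE 0.81, limma adjusted p = 0.0493) and 1.35 for XAF1 (SE 0.32, adjusted p = 0.0239).

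Stimulated genes near the floor of the table included some that are often read as markers of an interferon response. IFIT1 was at most 1.05 FPKM, IFIT2 at most 0.639, MX2 at most 0.914 and RSAD2 at most 0.252, and CMPK2 was listed at 0 in all 8 libraries, as MX1 was. BST2, ADAR and LY6E, by contrast, were above 47 FPKM in every library.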
